A study of Homo sapiens with 8 samples.

Results

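The proteasome genes of Jurkat cells, a line grown from a human T-cell acute lymphoblastic leukemia (T-ALL), were examined in 8 RNA-seq libraries. Genes were chosen by name: PSMA to PSMG followed by a digit, or POMP. The rule matched 51 of the 13453 genes in the table. Of these, 48 encode proteasome subunits, activators, an inhibitor or assembly factors, and all 48 passed the filter on low values used for testing (mean of at least 1 FPKM, fragments scaled to exon length and to the mapped fragments of the library). The other 3 matched by name only (PSMC3IP, PSMD6-AS2 and PSMG3-AS1), were kept out of every count below, and had 13.4 to 25.7, 0 to 0.504 and 0.792 to 2.81 FPKM over the libraries.

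The libraries form 2 sets, each with 2 conditions of 2 libraries. The shRNA set compares CBAP knockdown cells with sh-Ctrl cells, which carry a control shRNA. In the CRISPR/Cas9 set both conditions derive from CBAP-KO cells: CBAP knockout cells, which per the study's methods express GFP, are compared with CBAP-reconstituted cells, which were given the CBAP gene back as a GFP fusion. The methods describe single-cell sorting of the edited cells and drug selection of the shRNA cells, so a condition may stand for few clones. CBAP is listed under its gene symbol TMEM102, with 4.07 and 4.74 FPKM in sh-Ctrl, 2.69 and 2.89 in CBAP knockdown and 0 in each of the 4 CRISPR/Cas9-set libraries. The TMEM102 values therefore do not show the transgene in the CBAP-reconstituted libraries and do not separate the 2 conditions of that set. A listed 0 can be a failed estimate, so whether CBAP RNA was present in the CBAP-reconstituted libraries is not known. All 10 T-ALL markers examined were present in every library. CD3D was at 446 to 553 FPKM, but CD3E ranged from 364 to 1022, CD2 from 10.3 to 83.8 and CD28 from 2.59 to 37.5. The summed level of the 10 was 1621 to 1792 FPKM in the other 3 conditions and 2032 to 2486 in CBAP knockout. Of 10 markers of other cell types, 4 were in the table, with a summed level of 6.37 to 32.0 FPKM. Among these, CD79A ranged from 0.732 to 22.5 FPKM.

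The 26S proteasome degrades proteins tagged with ubiquitin. Its 20S core is a barrel of alpha and beta rings in which PSMB5, PSMB6 and PSMB7 carry the chymotrypsin-like, caspase-like and trypsin-like active sites, and in lymphoid cells these can be replaced by the immunoproteasome subunits PSMB8, PSMB9 and PSMB10. The 19S particle caps the barrel: its base unfolds substrates with the ATPases PSMC1 to PSMC6, and its lid removes ubiquitin through PSMD14. Dedicated chaperones build the core (PSMG1 to PSMG4 and POMP) and the base (PSMD5, PSMD9 and PSMD10), and PSME1 to PSME4 are alternative caps. Proteasome genes are known targets of NFE2L1, which binds antioxidant response elements together with small MAF proteins.

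Promoters are shown for the 3 genes that were lower in both sets (PSMA2, PSMA6 and PSMD6), and for PSMB3, a beta subunit whose promoter holds both motifs searched. The windows are 300 bases around a RefSeq start site, on GRCh38.p14, which is not the build of the expression data. Capitals mark the antioxidant response element core TGACNNNGC and the CCAAT box, each searched on both strands.
PSMA2, chr7:42932125-42932424, minus strand: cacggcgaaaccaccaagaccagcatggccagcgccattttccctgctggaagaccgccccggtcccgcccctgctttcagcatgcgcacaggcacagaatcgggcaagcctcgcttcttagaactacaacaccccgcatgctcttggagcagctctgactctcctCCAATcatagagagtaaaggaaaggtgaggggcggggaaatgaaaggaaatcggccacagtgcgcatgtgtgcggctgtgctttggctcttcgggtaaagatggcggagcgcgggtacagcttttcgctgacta
PSMA6, chr14:35292067-35292366, plus strand: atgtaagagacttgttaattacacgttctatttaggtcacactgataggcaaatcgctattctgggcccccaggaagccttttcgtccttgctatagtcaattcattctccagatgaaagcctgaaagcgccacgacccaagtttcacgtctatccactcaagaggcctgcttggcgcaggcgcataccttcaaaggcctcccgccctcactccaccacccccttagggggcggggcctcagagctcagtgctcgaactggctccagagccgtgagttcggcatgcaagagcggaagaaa
PSMD6, chr3:64023445-64023744, minus strand: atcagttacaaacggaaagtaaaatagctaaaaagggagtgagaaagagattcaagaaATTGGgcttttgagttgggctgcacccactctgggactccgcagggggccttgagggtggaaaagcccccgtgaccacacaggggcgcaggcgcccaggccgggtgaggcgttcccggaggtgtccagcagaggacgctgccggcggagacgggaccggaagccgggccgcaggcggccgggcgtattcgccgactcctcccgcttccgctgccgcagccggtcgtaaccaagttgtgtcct
PSMB3, chr17:38752491-38752790, plus strand: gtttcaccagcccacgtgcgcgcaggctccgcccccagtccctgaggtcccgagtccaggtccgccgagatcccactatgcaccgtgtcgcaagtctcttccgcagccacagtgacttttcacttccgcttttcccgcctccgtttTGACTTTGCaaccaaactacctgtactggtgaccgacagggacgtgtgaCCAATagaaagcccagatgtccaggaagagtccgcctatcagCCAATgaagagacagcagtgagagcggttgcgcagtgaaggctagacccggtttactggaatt
A promoter was found for 42 of the 48 genes. TGACNNNGC was present in at least 1 promoter of 15 of them (35.7%), beside 16.1% of all 27305 genes with a promoter. The CCAAT box was present in 19 (45.2%), beside 39.7% of all genes. Among the 31 genes with a promoter that were lower in CBAP knockout (below), 11 held TGACNNNGC, and among the 11 that did not pass the test, 4 did. PSMA2 and PSMD6 each held 1 CCAAT box and no TGACNNNGC. PSMA6, for which the first of 2 start sites is shown, held neither in that window.

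In CBAP knockdown the proteasome genes stayed near the sh-Ctrl level. The summed FPKM of the 48 genes was 4937 and 5166 in sh-Ctrl and 4627 and 5006 in CBAP knockdown, so the conditions overlapped. In limma's test across 11427 genes, 3 of the 48 fell and 0 rose (at an unadjusted p under 0.05, 9 were lower and 2 higher). Over all genes tested, 8.7% fell and 3.62% rose. The median log2 change of the 48 was -0.07, beside -0.06 for all genes.

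PSMA2 and PSMA6 are alpha-ring subunits and PSMD6 is a lid subunit. PSMA2 (chr7:42956427-42971784, GRCh37) was at 97.3 and 100.3 FPKM in sh-Ctrl and at 78.5 and 72.1 in CBAP knockdown, a log2 change of -0.39 ± 0.07 (SE, adjusted p = 0.0231). PSMA6 (chr14:35747839-35786699) went from 123.6 and 119.7 FPKM to 93.3 and 100.7 (-0.32 ± 0.05, adjusted p = 0.0204). PSMD6 (chr3:63996226-64009686) went from 90.4 and 95.9 FPKM to 74.0 and 81.2 (-0.26 ± 0.06, adjusted p = 0.0481). In each of these 3 genes both CBAP knockdown libraries were below both sh-Ctrl libraries. That order held for 21 of the 48 genes, beside 33.2% of all genes, and the reverse order for 4, beside 17.4%. None of the 3 passed when the shRNA set was fitted alone (adjusted p = 0.196, 0.221 and 0.291), and none passed when either CBAP-reconstituted library was left out. The count over the 48 genes was 1 without either sh-Ctrl library or either CBAP knockout library, 5 without CBAP knockdown replicate 1 (3 lower, 2 higher) and 7 without CBAP knockdown replicate 2. PSMD6 overlaps PSMD6-AS2 at its end. PSMA2 has 3 annotated pseudogenes and PSMA6 has 4, so their reads may be shared. Under quantile normalization 2 genes fell and 3 rose in CBAP knockdown, beside 7.26% and 7.39% of all genes.

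In CBAP knockout most proteasome genes were lower than in CBAP-reconstituted cells. Of the 48, 36 fell and 0 rose (at an unadjusted p under 0.05, 39 were lower and 0 higher), beside 25.9% of all genes that fell and 23.9% that rose. The median log2 change was -0.49, beside 0.00 for all genes. Summed FPKM was 6477 and 6521 in CBAP-reconstituted and 4197 and 4123 in CBAP knockout, and the share of the table's total was 1.5% in both CBAP-reconstituted libraries against 1.09% and 1.05%. Under quantile normalization 34 fell and 1 rose, with a median of -0.31, beside 25.0% and 25.7% of all genes and an all-gene median of 0.003 (-0.07 for genes with a mean of at least 50 FPKM). The 36 include PSMC2, which is listed at 0 in CBAP knockout; without it 35 of 47 fell.

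**Figure D1:**
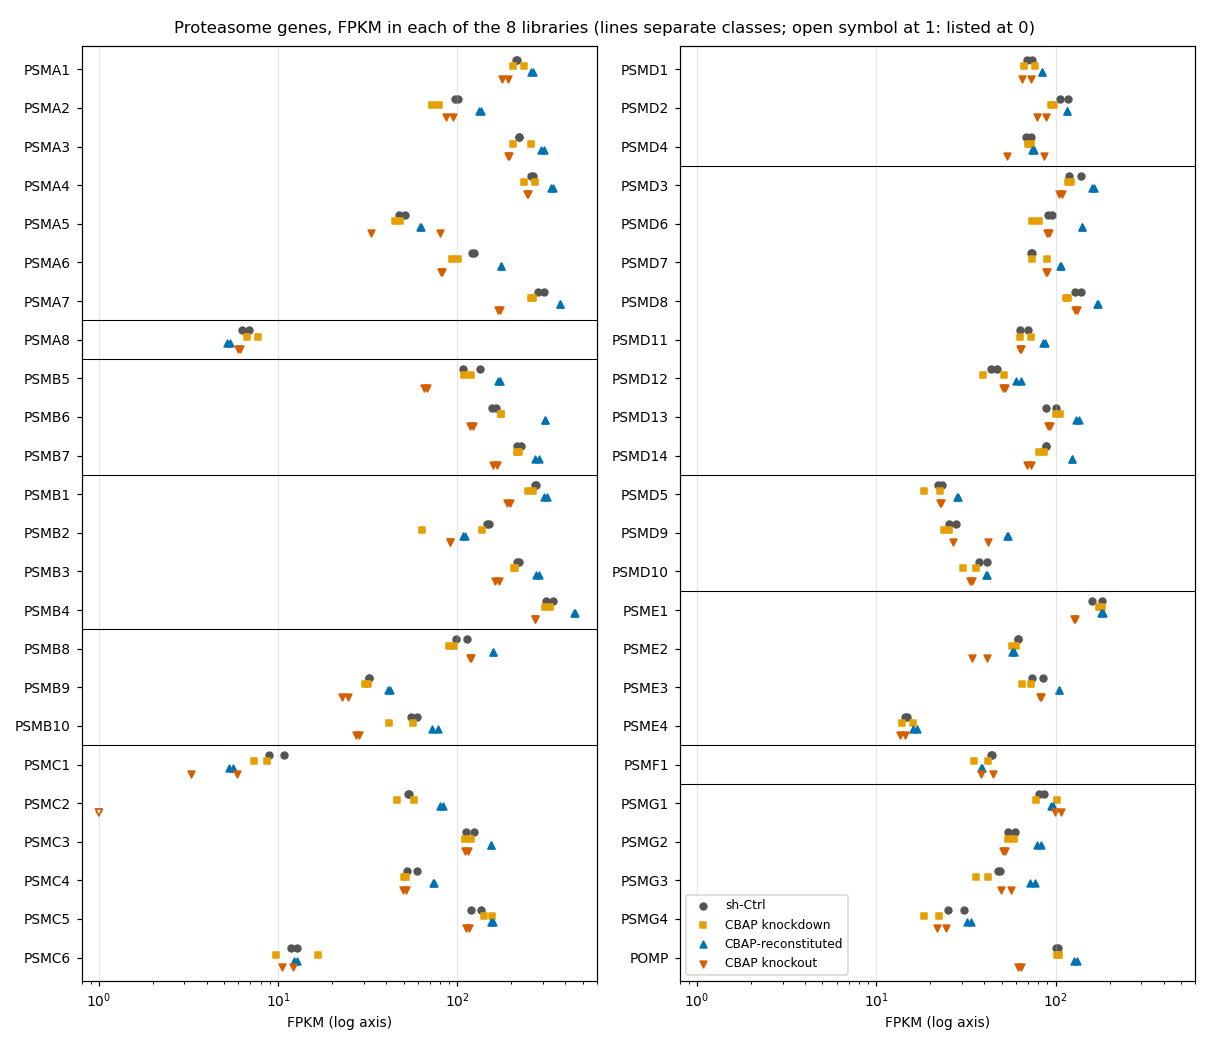
FPKM (log axis) of the 48 proteasome genes in each of the 8 libraries, with 1 symbol per library and lines between gene classes. For most genes the CBAP-reconstituted libraries lie to the right of the others, and PSMC2 is listed at 0 in both CBAP knockout libraries (open symbol).

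The 20S core had a lower median change than the 19S particle. Of its 14 constitutive subunits, 12 fell in CBAP knockout, with a median log2 change of -0.71, and 2 fell in CBAP knockdown, with a median of -0.07. In the alpha ring 6 of 7 fell. The lowest was PSMA7, with 373.8 and 374.0 FPKM in CBAP-reconstituted and 173.4 and 168.5 in CBAP knockout (-1.12 ± 0.05, adjusted p = 5.3e-05). PSMA6 followed, with 174.6 and 175.3 against 82.2 and 80.8 FPKM (-1.09 ± 0.05). The exception was PSMA5, at 62.5 and 61.7 FPKM in CBAP-reconstituted, whose CBAP knockout libraries were at 80.3 and 33.0 (-0.26 ± 0.38, adjusted p = 0.600). These 2 libraries lay on either side of the CBAP-reconstituted ones. PSMA5 was at 47.1 and 51.2 FPKM in sh-Ctrl and 45.0 and 47.6 in CBAP knockdown. PSMA7 was at 282.5 and 301.8 FPKM in sh-Ctrl and 262.5 and 256.7 in CBAP knockdown. PSMA2 was at 136.1 and 132.2 FPKM in CBAP-reconstituted and 94.1 and 86.1 in CBAP knockout. PSMA3 had the highest knockdown value of the ring (0.05 ± 0.11). PSMA3 was at 220.0 and 221.2 FPKM in sh-Ctrl, 203.2 and 255.8 in CBAP knockdown, 292.0 and 304.9 in CBAP-reconstituted and 194.5 and 191.3 in CBAP knockout, so its shRNA-set libraries overlapped. PSMA8, an alternative alpha subunit known from testis, was the least abundant alpha gene and did not pass in either set (0.11 and 0.16). PSMA8 was at 6.26 and 6.86 FPKM in sh-Ctrl, 6.68 and 7.67 in CBAP knockdown, 5.17 and 5.38 in CBAP-reconstituted and 6.10 and 5.94 in CBAP knockout.

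The 3 constitutive catalytic subunits fell in CBAP knockout, and none passed in CBAP knockdown. PSMB5 (chr14:23485752-23504439) was at 107.0 and 133.0 FPKM in sh-Ctrl, 119.0 and 108.3 in CBAP knockdown, 173.3 and 169.2 in CBAP-reconstituted and 67.7 and 64.9 in CBAP knockout. Its log2 change in the CRISPR/Cas9 set was -1.36 ± 0.11 (adjusted p = 0.000404), and the knockout libraries were the lowest of the 8. PSMB6 (chr17:4699439-4701797) was at 156.7 and 163.2 FPKM in sh-Ctrl, 174.2 and 175.6 in CBAP knockdown, 305.8 in both CBAP-reconstituted libraries and 117.4 and 122.1 in CBAP knockout (-1.35 ± 0.04, adjusted p = 2.1e-05). Its CBAP-reconstituted level was 1.91 times that of sh-Ctrl. PSMB7 was at 215.7 and 225.4 FPKM in sh-Ctrl, 214.7 and 221.1 in CBAP knockdown, 271.1 and 285.2 in CBAP-reconstituted and 165.9 and 157.7 in CBAP knockout (-0.78 ± 0.05, adjusted p = 0.000238). Of the 4 non-catalytic beta subunits, PSMB1, PSMB3 and PSMB4 fell by similar amounts in CBAP knockout (-0.68 to -0.74). PSMB3 was at 220.0 and 214.9 FPKM in sh-Ctrl, 209.3 and 207.7 in CBAP knockdown, 273.8 and 285.1 in CBAP-reconstituted and 162.7 and 170.1 in CBAP knockout. PSMB4 was at 311.7 and 339.5 FPKM in sh-Ctrl, 306.1 and 329.5 in CBAP knockdown, 451.0 and 447.1 in CBAP-reconstituted and 268.9 and 269.1 in CBAP knockout. Both were highest in CBAP-reconstituted and lowest in CBAP knockout. PSMB2 was at 106.7 and 110.7 FPKM in CBAP-reconstituted and 90.8 and 90.6 in CBAP knockout. PSMB2 did not pass in either set: its CBAP knockdown libraries were at 63.8 and 136.4 FPKM beside 146.6 and 150.8 in sh-Ctrl (-0.67 ± 0.32, adjusted p = 0.234).

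The 3 immunoproteasome subunits also fell in CBAP knockout and did not pass in CBAP knockdown. PSMB10 (chr16:67968409-67970767), the counterpart of PSMB7, was at 55.1 and 59.5 FPKM in sh-Ctrl, 56.7 and 41.6 in CBAP knockdown, 77.6 and 72.1 in CBAP-reconstituted and 27.1 and 28.1 in CBAP knockout. Its fall of 1.40 on the log2 scale (SE 0.14, adjusted p = 0.000858) was the largest among the 47 genes with no value of 0. PSMB9, the counterpart of PSMB6, was at 32.0 and 32.2 FPKM in sh-Ctrl, 30.6 and 31.6 in CBAP knockdown, 41.2 and 42.2 in CBAP-reconstituted and 22.8 and 24.6 in CBAP knockout (-0.79 ± 0.06). PSMB8, the counterpart of PSMB5, was at 97.6 and 113.1 FPKM in sh-Ctrl, 89.7 and 95.0 in CBAP knockdown, 156.8 and 158.5 in CBAP-reconstituted and 116.8 and 118.2 in CBAP knockout (-0.42 ± 0.08, adjusted p = 0.00682). PSMB8 and PSMB9 overlap at their ends on chromosome 6, and whether strand was used in counting is not given in the sources used here.

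The balance between each pair was compared per library, since FPKM is scaled to length, as a description with no test. The ratio of PSMB8 to PSMB5 was 0.754 to 0.936 in the 6 libraries of the other conditions and 1.72 and 1.82 in CBAP knockout. PSMB9 to PSMB6 was 0.194 and 0.201 in CBAP knockout and 0.135 and 0.138 in CBAP-reconstituted, while the shRNA set lay at 0.176 to 0.205. PSMB10 to PSMB7 moved the other way: 0.164 and 0.178 in CBAP knockout, 0.286 and 0.253 in CBAP-reconstituted. CBAP knockdown replicate 2, at 0.188, was close to the knockout values, and the other 3 shRNA-set libraries were at 0.256 to 0.264.

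In the 19S particle 11 of 17 genes fell in CBAP knockout (median log2 change -0.45) and 1 in CBAP knockdown. Without PSMC2, whose values follow, 10 of 16 fell, with a median of -0.44. Among the base ATPases, PSMC2 (chr7:102969017-103010793) was at 46.1 to 83.3 FPKM in 6 libraries and is listed at 0 in both CBAP knockout libraries. PSMC2 was at 52.9 and 53.6 FPKM in sh-Ctrl, 46.1 and 57.2 in CBAP knockdown and 79.9 and 83.3 in CBAP-reconstituted. No fold is given for it: 111 genes tested are at 0 in both knockout libraries and above 0 in both CBAP-reconstituted ones, 14 of them at a CBAP-reconstituted mean of at least 50 FPKM, and such values can be failed estimates. Of the other ATPases, PSMC3, PSMC4 and PSMC5 fell by 0.45 to 0.53 on the log2 scale. PSMC5 had the highest knockdown value of the 48 genes (0.23 ± 0.08, adjusted p = 0.126). PSMC5 was at 118.2 and 135.1 FPKM in sh-Ctrl, 141.4 and 155.7 in CBAP knockdown, 158.4 and 154.6 in CBAP-reconstituted and 111.8 and 115.8 in CBAP knockout. The 2 least abundant ATPases, PSMC1 and PSMC6, did not pass in either set. PSMC1 was at 8.85 and 10.8 FPKM in sh-Ctrl, 7.30 and 8.69 in CBAP knockdown, 5.29 and 5.59 in CBAP-reconstituted and 3.27 and 5.87 in CBAP knockout. PSMC6 was at 11.8 and 12.8 FPKM in sh-Ctrl, 9.74 and 16.7 in CBAP knockdown, 12.8 and 12.2 in CBAP-reconstituted and 12.1 and 10.5 in CBAP knockout. PSMC1 has 13 annotated pseudogenes, so its reads may be shared. Among the base non-ATPases, PSMD2 fell in CBAP knockout (-0.47 ± 0.07), while PSMD1 (-0.27, adjusted p = 0.0503) and the ubiquitin receptor PSMD4 (-0.15 ± 0.21) did not pass. PSMD2 was at 106.4 and 116.9 FPKM in sh-Ctrl, 93.9 and 98.4 in CBAP knockdown, 115.7 and 115.6 in CBAP-reconstituted and 79.0 and 87.9 in CBAP knockout, so CBAP knockout was lowest. PSMD4 was at 68.0 and 73.2 FPKM in sh-Ctrl, 70.4 and 72.6 in CBAP knockdown, 74.3 and 76.1 in CBAP-reconstituted and 86.3 and 53.3 in CBAP knockout, where the 2 knockout libraries lay on either side of all others.

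In the lid 6 of 8 subunits fell in CBAP knockout. PSMD14, the deubiquitinase, was lowest: 123.9 and 123.5 FPKM in CBAP-reconstituted and 69.6 and 73.1 in CBAP knockout (-0.79 ± 0.05, adjusted p = 0.000212). PSMD6 followed at -0.63 ± 0.06. PSMD7 was highest, at -0.26 ± 0.09 (adjusted p = 0.0570). PSMD14 was at 88.6 and 88.3 FPKM in sh-Ctrl and 81.0 and 86.6 in CBAP knockdown. PSMD6 was at 140.2 and 140.7 FPKM in CBAP-reconstituted and 91.5 and 89.8 in CBAP knockout. PSMD7 was at 73.9 and 72.9 FPKM in sh-Ctrl, 73.9 and 89.5 in CBAP knockdown, 106.2 and 106.5 in CBAP-reconstituted and 88.5 and 89.0 in CBAP knockout. In CBAP knockdown the lid ranged from -0.26 (PSMD6) to 0.15 (PSMD7).

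Of the 5 core chaperones, 4 fell in CBAP knockout and none passed in CBAP knockdown. POMP (chr13:29233202-29253096), which is consumed as a core matures, was at 100.7 and 103.6 FPKM in sh-Ctrl, 101.3 and 104.6 in CBAP knockdown, 132.1 and 126.9 in CBAP-reconstituted and 61.6 and 63.8 in CBAP knockout (-1.03 ± 0.05, adjusted p = 6.2e-05). Its shRNA-set libraries overlapped (0.01 ± 0.05). PSMG2 fell by 0.65 on the log2 scale. PSMG1, its partner in a dimer, did not pass (94.4 and 96.7 against 107.6 and 99.0 FPKM, 0.11 ± 0.13, adjusted p = 0.510). PSMG1 was at 81.0 and 85.9 FPKM in sh-Ctrl and 77.5 and 101.3 in CBAP knockdown. PSMG4 was at 30.7 and 25.2 FPKM in sh-Ctrl, 18.6 and 22.3 in CBAP knockdown, 32.1 and 33.9 in CBAP-reconstituted and 21.8 and 24.6 in CBAP knockout. PSMG4 had the lowest knockdown value of the chaperones (-0.43 ± 0.13, adjusted p = 0.0873). All 3 base chaperones fell in CBAP knockout, PSMD9 by the most (-0.66 ± 0.20, adjusted p = 0.0360), with knockout libraries at 26.8 and 42.1 FPKM. PSMD9 was at 25.6 and 27.8 FPKM in sh-Ctrl, 25.4 and 23.8 in CBAP knockdown and 53.3 and 54.0 in CBAP-reconstituted. Each of the 3 calls was lost under some alternatives: PSMD5 (adjusted p = 0.0469) and PSMD10 (0.0492) with a replicate block (0.0501 and 0.0790), and PSMD9 and PSMD10 under quantile normalization (0.0876 and 0.103). Without 1 CBAP knockout library the change of PSMD9 was -0.34 (without replicate 1) or -0.98 (without replicate 2). PSMD10 was at 41.2 and 37.6 FPKM in sh-Ctrl, 30.3 and 35.9 in CBAP knockdown, 41.4 and 40.6 in CBAP-reconstituted and 34.2 and 33.2 in CBAP knockout.

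Among the activators, PSME1 and PSME2, the interferon-inducible pair of PA28, fell in CBAP knockout, from 183.1 and 180.0 to 128.6 and 125.8 FPKM (-0.51 ± 0.07) and from 57.2 and 58.5 to 41.7 and 34.3 (-0.60 ± 0.09). Unlike most members, both had CBAP-reconstituted levels close to sh-Ctrl (1.07 and 0.934 times). PSME2 has 6 annotated pseudogenes. PSME1 was at 181.3 and 159.0 FPKM in sh-Ctrl and 174.9 and 182.3 in CBAP knockdown. PSME2 was at 62.0 and 62.0 FPKM in sh-Ctrl and 57.5 and 60.1 in CBAP knockdown. PSME3 was at 73.8 and 85.2 FPKM in sh-Ctrl, 64.5 and 72.8 in CBAP knockdown, 104.1 and 104.7 in CBAP-reconstituted and 82.7 and 82.0 in CBAP knockout. This nuclear activator fell by 0.34 on the log2 scale (adjusted p = 0.0231), but under quantile normalization it was at -0.12 (adjusted p = 0.153), and it did not pass without either CBAP-reconstituted or either CBAP knockout library (adjusted p = 0.0813 to 0.105). PSME4 (-0.21, adjusted p = 0.0790) and PSMF1, known as PI31 (0.10, adjusted p = 0.498), did not pass. PSME4 was at 14.9 and 14.5 FPKM in sh-Ctrl, 13.9 and 16.04 in CBAP knockdown, 15.95 and 16.9 in CBAP-reconstituted and 13.6 and 14.4 in CBAP knockout. PSMF1 was at 43.5 and 44.2 FPKM in sh-Ctrl, 35.1 and 42.2 in CBAP knockdown, 38.3 and 39.1 in CBAP-reconstituted and 44.8 and 38.3 in CBAP knockout, and the conditions of the CRISPR/Cas9 set overlapped for PSMF1.

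In the interaction test, 26 of the 48 genes passed, in each case with the knockdown change above the knockout change, beside 15.5% of all genes in that direction and 18.3% in the other. PSMB6 (difference 1.47 ± 0.06, adjusted p = 8.7e-05), PSMB5 (1.28 ± 0.15), PSMB10 (1.17 ± 0.20) and POMP (1.05 ± 0.07) differed most among the genes with no value of 0. PSMA6 and PSMD6, lower in both sets, also fell further in CBAP knockout (differences of 0.77 and 0.36), while for PSMA2 the difference did not pass (0.18 ± 0.09, adjusted p = 0.191). Leaving out either CBAP-reconstituted library brought the count to 17. Across the 47 genes with no value of 0, the changes in the 2 sets had a Pearson's r of 0.06, as a description across genes that share libraries.

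When the 4 CBAP-deficient libraries were set against the 4 CBAP-expressing libraries with no term for the set, 0 of the 48 passed in limma's test (at an unadjusted p under 0.05, 19 were lower and 0 higher), beside 0.621% of all genes. With the set as a covariate 8 fell (PSMA2, PSMA6, PSMB8, PSMD2, PSMD6, PSMD8, PSMG3 and PSMG4), beside 8.46% of all genes. In 11 genes every deficient library was below every expressing library, beside 10.3% of all genes.

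The position of the CBAP-reconstituted cells differed from that of the other conditions. In 34 of the 48 genes both CBAP-reconstituted libraries were above all 6 others, beside 29.7% of all genes. Against sh-Ctrl alone, 39 genes were higher in CBAP-reconstituted with no overlap, beside 58.5%. CBAP knockout was below sh-Ctrl with no overlap in 30 genes, beside 28.6%, and above it in 5, beside 51.4%. In 21 genes, among them PSMB5, PSMB6, PSMB7, PSMB10 and POMP, both CBAP knockout libraries were the lowest of the 8, beside 15.3%. The median log2 difference of CBAP-reconstituted minus sh-Ctrl was 0.36 over the 47 genes and 0.17 over all genes tested. For CBAP knockout minus sh-Ctrl it was -0.14 over the 47 genes and 0.14 over all genes. After median-ratio scaling the 47 genes were at 0.19 and -0.30, beside 0.01 and -0.003 for all genes. After quantile normalization they were at 0.17 and -0.15, beside 0.05 and 0.04. Over all genes with a mean of at least 50 FPKM, the medians as deposited were 0.21 and -0.06. After median-ratio scaling those abundant genes were at 0.04 and -0.23, and after quantile normalization at 0.03 and -0.02. These differences cross the sets, so the condition and the set cannot be told apart in them.

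Expression level moved with the knockout change. Of all genes with a mean of at least 50 FPKM, 48.6% fell in CBAP knockout (median log2 change -0.27), against 22.1% of those under 50 (0.04). Of the proteasome genes, 37 were at 50 FPKM or more and 30 of these fell (81.1%, median -0.52). Of the 11 below, 6 fell (54.5%, median -0.28). Over the 47 genes the change had a Pearson's r of -0.46 with log2 mean FPKM and 0.32 with log2 exon length, as a description across genes that share libraries. Over the 9977 genes tested that had an exon length, the values were weaker, at -0.14 and 0.12. The 23 genes with shorter exon unions had a median change of -0.53 and the 24 longer ones -0.44. The 14 constitutive 20S genes were more abundant than the 17 genes of the 19S particle. In sh-Ctrl their sums were 2667 and 2772 FPKM against 1294 and 1412. The part of level and length in the result, and in the contrast of 20S core and 19S particle, was not tested.

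Of 29 other genes of the pathway that were tested, 3 fell in CBAP knockdown, 12 fell and 2 rose in CBAP knockout, and 1 fell when the sets were pooled. The 3 that fell in CBAP knockdown are 10.3% of the list, beside 8.7% of all genes. For the knockout counts, 25.9% of all genes fell and 23.9% rose. That 1 gene was VCP, the segregase that delivers ubiquitinated proteins to the proteasome. VCP was at 113.7 and 123.8 FPKM in sh-Ctrl, 74.5 and 76.8 in CBAP knockdown, 158.9 and 156.9 in CBAP-reconstituted and 60.3 and 59.9 in CBAP knockout. It fell by 0.64 and 1.38 on the log2 scale in the 2 sets (adjusted p = 0.00396 and 3.6e-05). UBB, a polyubiquitin gene, also fell in both sets (-0.37 and -1.19), and UBA1, the main ubiquitin-activating enzyme, in CBAP knockdown (-0.30 ± 0.04). Of the proteins bound to the proteasome, the ubiquitin receptor ADRM1 fell in CBAP knockout (-0.78 ± 0.12, adjusted p = 0.00413), as did SHFM1, a small lid subunit (-0.42 ± 0.05). UCHL5 (-0.35), USP14 (-0.29), PAAF1 (-0.37) and TXNL1 (-0.32) fell there as well. So did the shuttle factor RAD23B (-0.43) and RPS27A, a ubiquitin fusion gene (-0.96). NFE2L1 rose in CBAP knockout (0.33 ± 0.07, adjusted p = 0.00888). The NFE2L2 change there was of similar size but did not pass (0.29 ± 0.10, adjusted p = 0.0562). In CBAP knockdown NFE2L2 did not pass either (0.15). Of the small MAF genes, MAFF rose (0.38) and MAFK fell (-0.64) in CBAP knockout. MAFF was near the filter on low values, at 1.52 and 1.58 FPKM in CBAP-reconstituted and 2.10 and 2.57 in CBAP knockout. MAFG, counted among the 12 that fell, is listed at 0 in both knockout libraries. Such values can be failed estimates, so no fold is given for MAFG.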

How the data were processed

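RNA from 8 libraries of Jurkat-derived cells was sequenced by the authors, who mapped reads to hg19 with TopHat and deposited cuffdiff FPKM values for 13453 genes. The submitters' processing notes also name CASAVA 1.8, Bowtie and Cufflinks. The table holds no counts, so the depth is unknown and precision rests on 2 libraries per condition. Groups came from the labels. Values were tested as log2(FPKM + 1) for genes with a mean of at least 1 FPKM (11427 genes) with limma 3.58.1 in R 4.3.3: 1 mean per condition over all 8 libraries, trended variances, Benjamini-Hochberg adjustment and a threshold of 0.05. Fold changes on this scale understate those of low genes. Nothing says that libraries came from separate cultures, so p-values measure the spread between libraries, which may be technical. The test was checked on simulated data. Coordinates and exon lengths are from GENCODE 44 lifted to GRCh37, promoters from RefSeq. Members, classes and lists were chosen with earlier results of these data known. Named genes were those with the lowest and highest change in each class, the catalytic subunits, POMP, genes listed at 0 and genes passing in both sets. PSMB1, PSMC3, PSMC4, PSMD1, PSMD5, PSMD8, PSMG2 and PSMG3 were named besides, after their values were seen. Alternatives changed the pseudocount (0.1), filter (5 FPKM or none), scaling, variance trend, listed zeros, replicate block, set covariate and libraries.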

Additional observations from a re-analysis of the deposited data

Results flagged for a closer look

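Of 96 groups of 4 libraries (48 genes in the CBAP-expressing and in the CBAP-deficient libraries), 7 held a library set apart from the other 3. A chance count of about 4.8 would hold for 4 libraries of the same condition. Each group joins libraries of different conditions, so the 7 cannot be judged against it. CBAP knockdown replicate 1 was low for PSMD7 (73.9 FPKM), PSMD12 (39.4 FPKM) and PSMD5 (18.3 FPKM), and CBAP knockdown replicate 2 was high for PSMD11 (73.2 FPKM). CBAP knockout replicate 2 was high for PSMD9 (42.1 FPKM). Among the expressing libraries, sh-Ctrl replicate 1 was low for PSMD2 (106.4 FPKM) and sh-Ctrl replicate 2 was low for PSME1 (159.0 FPKM).

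For 26 genes the change differed between the sets by limma's interaction test. The values are knockdown change minus knockout change on the log2(FPKM + 1) scale. In the alpha ring these were PSMA1 (0.53), PSMA3 (0.67), PSMA4 (0.41), PSMA6 (0.77) and PSMA7 (0.96). Among the beta subunits they were PSMB5 (1.28), PSMB6 (1.47), PSMB7 (0.76), PSMB1 (0.60), PSMB3 (0.68), PSMB4 (0.70), PSMB9 (0.75) and PSMB10 (1.17). Among the 19S ATPases they were PSMC3 (0.41), PSMC4 (0.42) and PSMC5 (0.69), with a fitted 6.32 for PSMC2, which is listed at 0 in CBAP knockout and has no interpretable size. Among the other 19S genes they were PSMD3 (0.49), PSMD6 (0.36), PSMD11 (0.46), PSMD13 (0.65) and PSMD14 (0.71). Of the activators and core chaperones they were PSME1 (0.58), PSME2 (0.53), PSMG2 (0.64) and POMP (1.05).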

How the results depend on the processing

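The count of proteasome genes called in CBAP knockout (36) ranged from 34 to 41 over the other settings and from 30 to 40 with 1 library left out, and 29 of the 36 genes passed in every alternative (PSMD5, PSMD9, PSMD10, PSMD11, PSME3, PSMG3 and PSMG4 did not). The knockdown count (3) was the least stable: it was 5 under quantile normalization, 0 with the shRNA set alone and 0 to 7 with 1 library left out (0 without either CBAP-reconstituted library), and none of the 3 genes passed in every alternative. The difference between the sets (26) ranged from 17 to 31 with 1 library left out, and 17 of the 26 genes passed throughout. The pooled count (0) was 8 with the set as a covariate and 0 otherwise, also in every fit without 1 library (0 to 0). The 29 and the 17 include PSMC2, which was not tested in the setting that leaves out genes with a listed 0. No gene called in the main fit changed direction. The knockout counts take both directions: 40 fell and 1 rose with the CRISPR/Cas9 set alone, and 34 fell and 1 rose under quantile normalization. With a replicate block the counts were 2 in knockdown, 35 in knockout, 26 between the sets and 0 pooled. Replicate deviations correlated at 0.146 between sh-Ctrl and CBAP knockdown and at -0.06 to 0.02 otherwise. With 2 libraries per condition, these values cannot settle whether the replicate numbers pair the libraries. The cause of these shifts was not tested. Depth is unknown, so limits of detection could not be set.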
